A study of Mus musculus with 2 samples.

Results

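The genes described here are 10 genes of airway mucus and of the cells that make it: Muc5ac, Muc5b, Agr2, Spdef, Foxa3, Clca1, Itln1, Bpifb1, Bpifa1 and Pigr. They were taken by gene symbol from the 32285 genes of the deposited single-cell count matrices, and all 10 were found. Their raw counts of unique molecules (UMIs) were followed across airway secretory, ciliated and alveolar epithelial cells and across both libraries of the series. The study sorted lung cells without CD45.2, a surface marker of blood-derived cells, and measured them by droplet 3' single-cell RNA sequencing after an allergen challenge. One library was from Plaur KO mice, which by the label lack Plaur, the gene of the urokinase receptor, and the other was from WT mice. The strain label of both is C57B6/J. Mice of both genotypes were given lipopolysaccharide with ovalbumin on days 0 and 7 to sensitise them, and they breathed ovalbumin aerosol on day 14, so there was no unchallenged group. The study used 8 mice per genotype, and the labels do not say how many each library held. They call the material a total lung cell lysate, although sorted live cells were loaded. With 1 library per genotype no difference below has a replicate check, and no test or p-value was computed. Plaur messenger RNA was counted in both libraries, at 33.1 CPM in the library labelled Plaur KO and 46.9 CPM in the WT library over all kept cells. In the epithelial classes used here it was higher in the library labelled Plaur KO. Airway secretory-like cells had 19.7 CPM in the library labelled Plaur KO and 8.37 CPM in the WT library, and ciliated-like cells 46.2 CPM in the library labelled Plaur KO and 12.3 CPM in the WT library. AT2-like cells had 17.4 CPM (653 UMIs) in the library labelled Plaur KO and 2.23 CPM (56 UMIs) in the WT library. The genotype label does not give the deleted part of Plaur, and a 3' tag outside that part would check nothing. The counts therefore do not settle the genotype. The library is called KO-labelled, and every direction rests on that label.

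Airway mucus is a gel built from large secreted glycoproteins, the gel-forming mucins. In mouse airways Muc5b is made by secretory cells at rest and is needed for clearance of particles, while Muc5ac is induced by allergens through interleukin-13 as secretory (club) cells turn into mucous cells. Spdef and Foxa3 are transcription factors of mucous cells, Agr2 helps fold mucins in the endoplasmic reticulum, and Clca1 and Itln1 are secreted proteins found with mucus. Bpifa1 and Bpifb1 are secreted proteins of the BPI-fold family in airway lining fluid, and Pigr carries dimeric IgA across epithelia.

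The KO-labelled library held 9771 barcodes and 51529241 UMIs and the WT library 11776 barcodes and 57028943 UMIs, with 30 barcode sequences in common. After filtering, 8934 cells of the KO-labelled library and 10225 cells of the WT library remained. The median cell had 5537.5 UMIs in the KO-labelled and 4837 UMIs in the WT library. Cells were clustered without the 10 genes, and clusters were named by markers of each class. The airway secretory-like class was 1 cluster with 10 of its 16 markers among its 50 leading genes, Scgb1a1 first. It held 111 cells (1.24% of kept cells) in the KO-labelled library and 368 cells (3.60%) in the WT library. Median depth in the class was 13144 UMIs in the KO-labelled and 9704.5 UMIs in the WT library. The KO-labelled library had 585 ciliated-like cells, 5802 AT2-like cells (the surfactant-making alveolar cells) and 46 AT1-like cells (the flat gas-exchange cells), and the WT library had 958, 3792 and 17. Endothelial and fibroblast-like cells, 1753 in the KO-labelled library and 3127 in the WT library, served as the background class for free RNA from broken cells. There Scgb1a1, the main secretory-cell transcript, was 180 CPM in the KO-labelled library and 2766 CPM in the WT library, so secretory-cell RNA outside its own cells was not equal between libraries. Levels below are counts per 1000000 UMIs of the class (CPM), with exact Poisson 95% intervals where given. Ratios are log2 of the KO-labelled over the WT library with exact conditional binomial 95% intervals, and all intervals cover counting error only.

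In airway secretory-like cells the inducible mucin Muc5ac, the folding factor Agr2 and the lectin Itln1 had the lowest ratios, and Bpifb1 was also more than 2-fold lower in the KO-labelled library. Bpifa1 alone had an interval above 0, and Pigr, Spdef and Foxa3 had intervals that included 0. A gene was called past a difference of 2-fold or more with at least 20 UMIs over both libraries. All 10 genes had that many UMIs here, 4 of 10 were called lower and 0 of 10 higher. Muc5ac, Agr2 and Itln1 had under 20 UMIs in the KO-labelled library, so they passed the minimum through the WT library, where they were higher. Among 9255 genes measured in the class, 9.25% were called lower and 0.659% higher. The median log2 ratio of the 10 genes was -0.70, beside -0.25 over all measured genes. With edgeR's TMM scaling all ratios of the class would move up by 0.22.

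**Figure D1:**
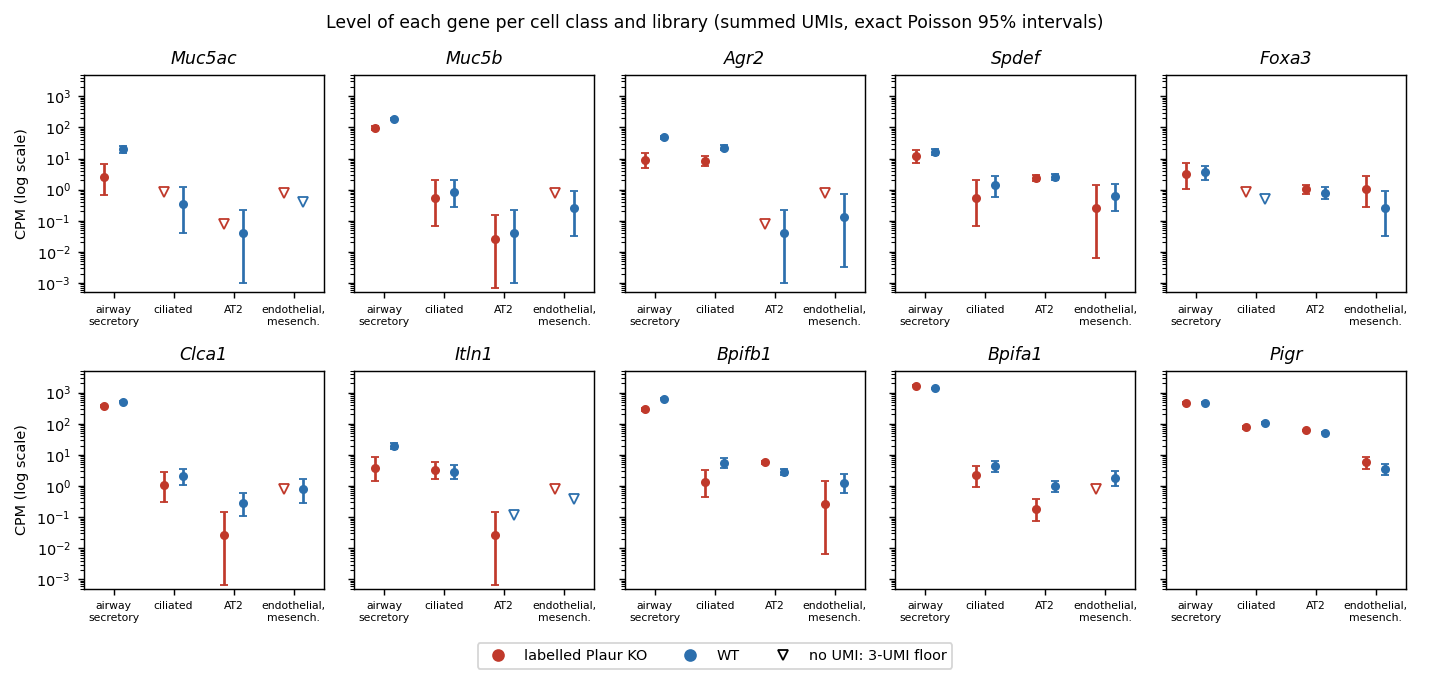
Level of each of the 10 genes (CPM, log axis) in 3 epithelial classes and in pooled endothelial and fibroblast-like cells; red, KO-labelled library, left of blue, WT library. Bars are exact Poisson 95% intervals and open triangles mark a count of 0 at the level that 3 UMIs would give. Muc5b, Clca1 and Bpifa1 are near background outside airway secretory-like cells, Agr2 is also counted in ciliated-like cells, and Pigr is counted in all 3 epithelial classes.

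Of the gel-forming mucins, Muc5ac had 4 UMIs (2.55 CPM, 0.694 to 6.52) in the KO-labelled library and 82 UMIs (19.6 CPM, 15.6 to 24.3) in the WT library, a log2 ratio of -2.95 (-4.86 to -1.53). The 4 UMIs lay in 2 of 111 cells, against 26 of 368 cells in the WT library. After each cell was thinned to 2000 UMIs the expected share of cells with Muc5ac was 0.382% in the KO-labelled library and 2.16% in the WT library; the first amounts to under 1 cell, so no order is read from it. In the background class Muc5ac had no UMI in either library, where a count of 0 allows up to 0.778 CPM in the KO-labelled and 0.387 CPM in the WT library. Muc5b, the mucin of resting airways, had 96.1 CPM (81.4 to 113) in the KO-labelled library and 184 CPM (171 to 198) in the WT library. Its ratio was -0.94 (-1.20 to -0.69), short of 2-fold. The share of cells with a Muc5b UMI was 17.1% in the KO-labelled and 16.8% in the WT library. These shares were not matched for depth, and the class median was 13144 UMIs in the KO-labelled and 9704.5 UMIs in the WT library. The same limit holds for the shares of cells given below for the other genes.

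Both mucin genes lie head to tail on chromosome 7 in the GENCODE M21 annotation of GRCm38. Muc5ac (ENSMUSG00000037974) spans 141788972 to 141819231 and Muc5b (ENSMUSG00000066108) 141839070 to 141873084 on the plus strand, 19.8 kb apart. Of the 10 genes, Foxa3 (chromosome 7, 19013284 to 19023538, minus strand) lies closest to Plaur, at 5.45 Mb.

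Agr2, the disulfide isomerase family member that mucin folding needs in mouse gut and airway, had 14 UMIs (8.91 CPM, 4.87 to 14.95) in the KO-labelled library and 198 UMIs (47.4 CPM, 41.0 to 54.4) in the WT library. The ratio was -2.41 (-3.31 to -1.63). In the KO-labelled library 1 cell held 9 of the 14 UMIs, and without the cell with most Agr2 UMIs in each library the ratio was -3.62. Shares of cells, not matched for depth, differed less, 4.50% in the KO-labelled and 6.52% in the WT library.

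Transcription factor messages were few. Spdef, an ETS-family factor that drives mucous differentiation in mouse airway, was 12.1 CPM (19 UMIs) in the KO-labelled library and 16.3 CPM (68 UMIs) in the WT library, with a ratio of -0.43 (-1.24 to 0.32). Foxa3 was 3.18 CPM (5 UMIs) in the KO-labelled and 3.59 CPM (15 UMIs) in the WT library. Both intervals included 0, so neither a lower nor an equal level can be stated at this depth. The Foxa3 interval in KO-labelled secretory-like cells, 1.03 to 7.43 CPM, overlapped that of the background class, 0.283 to 2.66 CPM.

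Among the proteins secreted with mucus, Itln1, intelectin, a lectin induced in allergic airways, had 6 UMIs (3.82 CPM) in the KO-labelled library and 82 UMIs (19.6 CPM) in the WT library. Its ratio was -2.36 (-3.85 to -1.18). Clca1, a mucus-modifying metalloprotease, was 374 CPM (345 to 406) in the KO-labelled library and 516 CPM (495 to 539) in the WT library, a ratio of -0.46 (-0.60 to -0.33). That direction was not stable. The ratio was 0.14 as a mean of per-cell CPM and 0.13 as that mean in cells with at least 2000 UMIs. These settings are nearly the same measure and not separate checks. Clca1 UMIs sat in few cells, 7 of 111 in the KO-labelled library and 34 of 368 in the WT library, with up to 170 in a KO-labelled cell and 223 in a WT cell.

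The BPI-fold genes differed from each other. Bpifb1 had 293 CPM (267 to 321) in the KO-labelled library and 648 CPM (624 to 673) in the WT library, a ratio of -1.14 (-1.29 to -0.9996). It was seen in 21.6% of cells in the KO-labelled and 21.2% in the WT library. Under the alternatives tried the Bpifb1 ratio ranged from -1.34 to -0.81, and it was short of 2-fold at -0.92 with TMM scaling. Bpifa1, its neighbour 41.6 kb away on chromosome 2, had 1679 CPM (1616 to 1745) in the KO-labelled and 1371 CPM (1336 to 1407) in the WT library, a ratio of 0.29 (0.23 to 0.36). Few cells set that value: 1 cell held 905 of 2639 UMIs in the KO-labelled library and 1 cell 1735 of 5732 UMIs in the WT library. The Bpifa1 ratio was 0.21 without these cells and 1.22 as a mean of per-cell CPM in cells with at least 2000 UMIs.

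Pigr, the receptor for polymeric immunoglobulin, was the gene of the 10 seen in most cells, 72.1% in the KO-labelled and 64.4% in the WT library. Its level was 458 CPM (425 to 493) in the KO-labelled and 470.2 CPM (450 to 491) in the WT library, a ratio of -0.04 (-0.16 to 0.09).

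**Figure D2:**
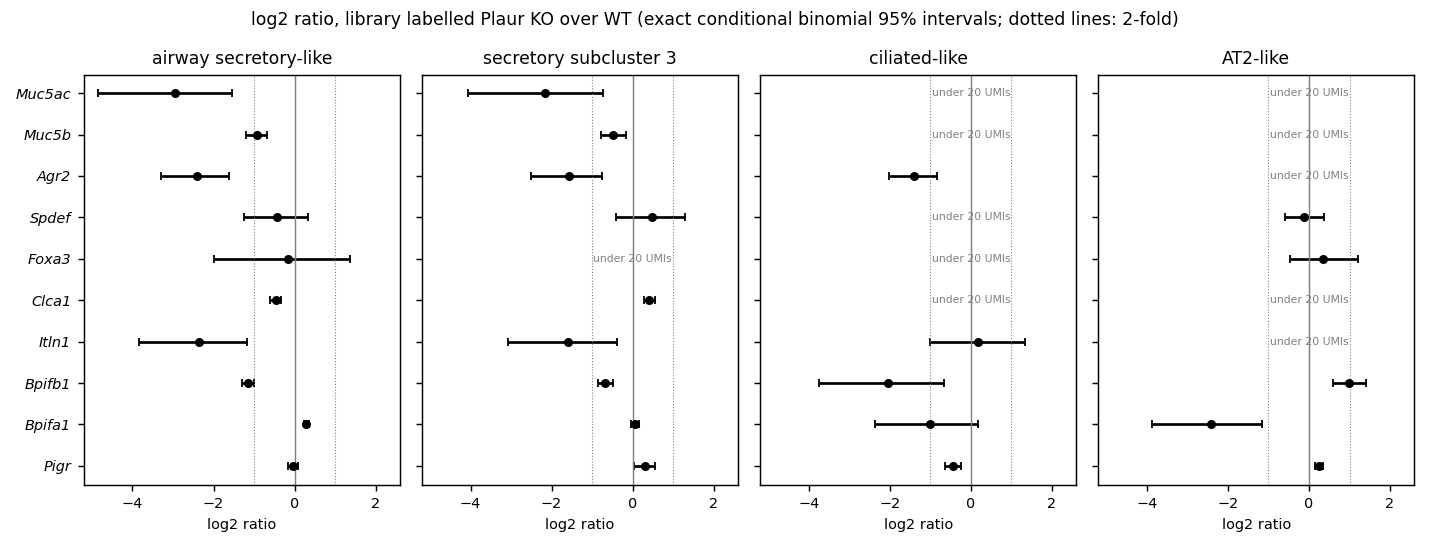
The log2 ratio, KO-labelled over WT library, of each gene in airway secretory-like cells, in secretory subcluster 3 (the cells richest in these genes), in ciliated-like and in AT2-like cells. Points are ratios of summed UMIs, bars exact conditional binomial 95% intervals and dotted lines 2-fold; genes under 20 UMIs have no point. Muc5ac, Agr2 and Itln1 lie left of -1 in the first 2 panels, and Bpifb1 lies left of 0 in airway secretory-like cells and right of 0 in AT2-like cells.

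Promoter sequence is shown for Agr2 and Itln1, which were both called lower, and for Bpifa1, which was not. The windows are the 250 bases before the RefSeq gene start (GRCm38.p6), written 5' to 3' on the gene's strand, and 7 of the 10 genes had an entry, with 8 windows in all because Bpifb1 had 2. Capitals mark AGGAT on either strand (a word with the GGA core that ETS factors such as Spdef bind) and TATAAA, and the words do not overlap.
Agr2, chr12:35992675-35992924, plus strand: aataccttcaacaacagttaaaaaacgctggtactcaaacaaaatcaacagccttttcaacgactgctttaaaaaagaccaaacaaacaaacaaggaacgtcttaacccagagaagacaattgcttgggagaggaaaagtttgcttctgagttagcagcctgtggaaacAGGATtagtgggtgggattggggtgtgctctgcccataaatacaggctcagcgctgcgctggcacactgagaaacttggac
Itln1, chr1:171535295-171535544, minus strand: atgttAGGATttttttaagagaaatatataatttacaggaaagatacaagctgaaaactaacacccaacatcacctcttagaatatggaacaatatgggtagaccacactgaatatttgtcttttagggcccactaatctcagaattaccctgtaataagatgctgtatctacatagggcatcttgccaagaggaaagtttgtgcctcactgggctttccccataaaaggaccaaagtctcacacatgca
Bpifa1, chr2:154142630-154142879, plus strand: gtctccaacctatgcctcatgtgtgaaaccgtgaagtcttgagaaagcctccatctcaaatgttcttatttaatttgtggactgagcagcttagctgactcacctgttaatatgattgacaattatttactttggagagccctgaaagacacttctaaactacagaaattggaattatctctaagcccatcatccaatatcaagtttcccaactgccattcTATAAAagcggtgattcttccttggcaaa
AGGAT stood 81 bases before the start in Agr2 and 245 bases before it in Itln1, and not in the Bpifa1 window, which had TATAAA 29 bases before the start. This did not follow the calls: Pigr and Spdef, neither called lower, had 3 matches of AGGAT each, and Bpifb1, called lower, had 2 in 1 of its windows. Of the 7 genes, 5 had AGGAT, a word found in 35.8% of 32851 mouse promoters of the same length, and 2 had TATAAA, found in 12.4%. The words TGTTTAC, of the type bound by FOXA factors (3.17% of promoters), and TTC followed by GAA after a gap of 4 bases, of the type bound by STAT6 (5.85%), were in none of the windows on either strand. These matches describe letters in the window and not sites in use.

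Within the airway secretory-like class the genes were concentrated in a small group of cells. Clustered alone, again without the 10 genes, the class split into 6 subclusters. Subcluster 3 was led by Clca1, Serpinb1a, Reg3g, Msln, Tff2 and Muc5b. It had 12 cells (10.8% of the class) of the KO-labelled library and 41 cells (11.1%) of the WT library. It was picked as the subcluster with most UMIs of the 10 genes, 61.5% with both libraries pooled. In the KO-labelled library most of these UMIs lay outside subcluster 3, and in the WT library most lay in it. Scgb1a1 was counted in 9 of the 12 KO-labelled cells and in 41 of 41 WT cells of subcluster 3. The secretory markers Cyp2f2 and Scgb3a1 were each counted in 7 of the 12 KO-labelled cells. In the 41 WT cells they were counted in 36 and 34. Msln among the leading genes of subcluster 3 is a marker of mesothelial cells. Subclusters 0 and 1 were Scgb1a1-rich, with 557989 and 688791 CPM of Scgb1a1 in the KO-labelled library and 508131 and 626689 CPM in the WT library. Subclusters 2, 4 and 5 were led by markers of AT2, basal and endothelial cells. Without these 3 subclusters, which left 85 cells in the KO-labelled and 276 in the WT library, Muc5ac stood at -2.93, Agr2 at -2.14, Itln1 at -2.26 and Bpifb1 at -0.97.

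**Figure D3:**
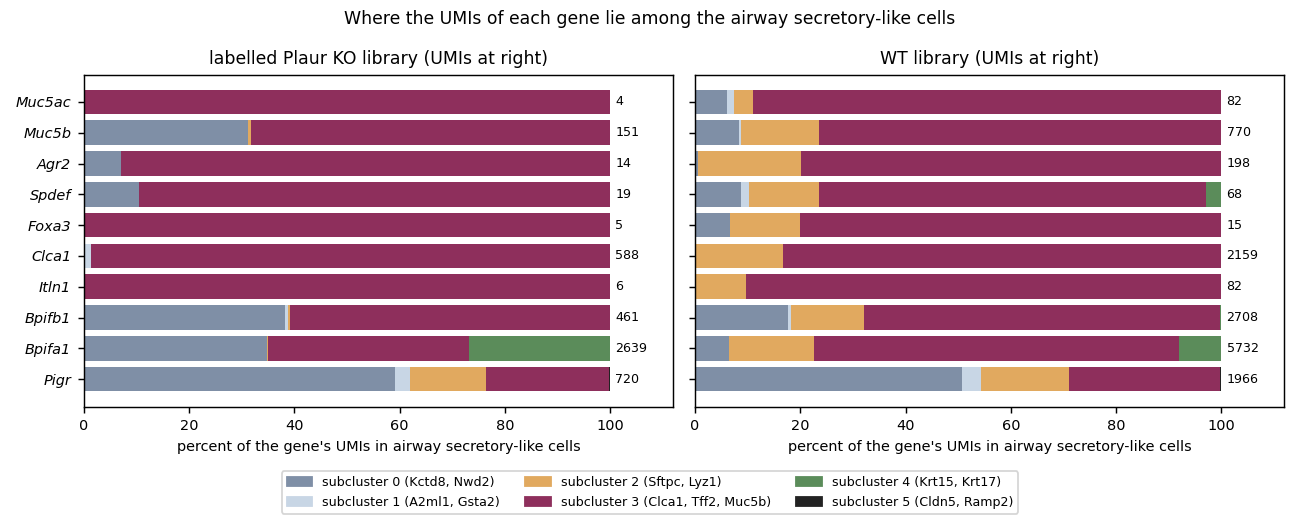
Share (percent) of each gene's UMIs in the 6 subclusters of the airway secretory-like class, KO-labelled library left and WT library right, with the gene's UMIs in the class at the right of each bar. Subcluster 3 holds most UMIs of each gene in the WT library except Pigr, and in the KO-labelled library of each gene except Pigr and Bpifa1.

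In subcluster 3 the gap between libraries was narrower than over the class for several genes. Muc5ac was 30.8 CPM in the KO-labelled library and 137 CPM in the WT library there (-2.15, -4.07 to -0.74). Agr2 had 100.01 CPM in the KO-labelled and 296 CPM in the WT library (-1.57, -2.51 to -0.75), and Itln1 46.2 CPM in the KO-labelled and 139 CPM in the WT library (-1.59, -3.08 to -0.40). These 3 were called lower, of 9 genes with enough UMIs, beside 10.3% of 3637 genes, and 0 were called higher, beside 6.08%. All 3 passed the minimum through the WT library. Muc5b and Bpifb1 stood at -0.48 (-0.79 to -0.17) and -0.68 (-0.86 to -0.50). Clca1 was on the other side, 4462 CPM in the KO-labelled and 3372 CPM in the WT library (0.40, 0.27 to 0.54), as was Pigr (0.29, 0.04 to 0.54). Bpifa1 was 7762 CPM in the KO-labelled and 7457 CPM in the WT library, with an interval that included 0, and so did that of Spdef (0.48, -0.41 to 1.30). Whether these ratios differ from those of the whole class was not tested. The part of an unlike mix of cells in subcluster 3 between libraries was not tested either.

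Bpifa1 had a second place of high counts. In subcluster 4, led by the basal-cell genes Krt15 and Krt17, it stood at 22712 CPM in 6 cells of the KO-labelled library and 3028 CPM in 29 cells of the WT library. The UMIs came from 2 of 6 cells in the KO-labelled and 10 of 29 cells in the WT library. Scgb1a1 was 1957 CPM there in the KO-labelled and 2089 CPM in the WT library, far under the rest of the class, and none of Muc5ac, Muc5b, Agr2, Foxa3 or Itln1 had a UMI there in either library.

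Cell by cell, most secretory-like cells carried 0 or 1 of the 10 genes, and a small group carried many. At least 6 of the 10 genes were detected in 4 of 111 cells (3.60%, 0.99 to 8.97) of the KO-labelled library and 28 of 368 cells (7.61%, 5.12 to 10.8) of the WT library, and these intervals overlapped. These cells held 32.0% of all UMIs of the 10 genes in the KO-labelled class and 73.1% in the WT class. They were picked by detection of the same genes, so high shares of those genes' UMIs in them follow in part from the choice. Bpifa1 weighs on these shares, with 18.6% of its UMIs in such cells in the KO-labelled and 77.1% in the WT class, and without it they were 49.8% in the KO-labelled and 70.4% in the WT class. All 4 of the KO-labelled cells and 24 of the 28 WT cells lay in subcluster 3. Median depth of the cells with at least 6 genes was 16918 UMIs in the KO-labelled and 17452 UMIs in the WT library. Among WT cells with 8 or more genes, those outside subcluster 3 lay in subcluster 2, led by AT2 markers. They were the deepest, with 25173, 31955 and 41406 UMIs, and whether they were doublets was not tested. In the KO-labelled library the cells with at least 6 genes held all 4 Muc5ac UMIs, all 6 Itln1 UMIs and 13 of 14 Agr2 UMIs. In the WT library the cells with at least 6 genes held 74 of 82 Muc5ac UMIs, all 82 Itln1 UMIs and 197 of 198 Agr2 UMIs.

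**Figure D4:**
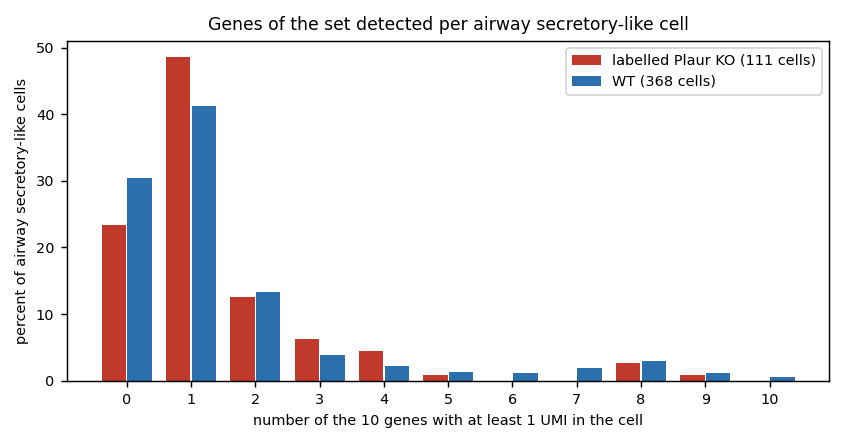
Percent of airway secretory-like cells by the number of the 10 genes with at least 1 UMI, KO-labelled library (red, 111 cells) left of WT library (blue, 368 cells). Most cells have 0 or 1 gene, and a small second group has 8 or more, 4 cells in the KO-labelled and 17 cells in the WT library.

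The genes were seen together in single cells, which were also deeper than the rest. Cells with a Muc5ac UMI had a median of 17548 UMIs in the KO-labelled and 17204.5 UMIs in the WT library, and cells without one had 12892 UMIs in the KO-labelled and 8990 UMIs in the WT library. The part of depth in the shared detection was not tested. Both Muc5ac cells of the KO-labelled library also had Muc5b, Spdef, Agr2, Clca1 and Pigr. In the WT library 23 of 26 Muc5ac cells had Muc5b, 21 had Clca1, 15 had Agr2 and 11 had Itln1. All 16 Itln1 cells of the WT library had Clca1, Muc5b and Bpifb1, and 23 of 24 Agr2 cells had Clca1. The KO-labelled cell with most of these genes detected, 9 of 10, had 3 Muc5ac, 17 Muc5b, 9 Agr2, 5 Spdef, 123 Clca1, 3 Itln1, 82 Bpifb1, 97 Bpifa1 and 10 Pigr UMIs among 17008. A WT cell with all 10 genes had 11 Muc5ac, 24 Muc5b, 19 Agr2, 11 Spdef, 5 Foxa3, 104 Clca1, 5 Itln1, 142 Bpifb1, 367 Bpifa1 and 17 Pigr UMIs among 16153. Muc5ac-positive cells were still rich in secretory-cell RNA, with Scgb1a1 at 297299 CPM in the KO-labelled and 297808 CPM in the WT library. Cells without Muc5ac had more, 492015 CPM in the KO-labelled and 449991 CPM in the WT library. Foxj1, a marker used for ciliated cells, had 39 UMIs (88.8 CPM) in the 26 WT Muc5ac cells. It had 5 UMIs (1.34 CPM) in WT cells without Muc5ac and 0 in KO-labelled cells of either kind. Whether WT Muc5ac cells with Foxj1 were doublets was not tested.

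In ciliated-like cells, which beat mucus along the airway, Agr2, Pigr and Itln1 were counted above the background class. Agr2 had 31 UMIs in 29 of 585 cells (8.52 CPM, 5.79 to 12.1) of the KO-labelled library and 132 UMIs in 72 of 958 cells (22.5 CPM, 18.8 to 26.7) of the WT library, a ratio of -1.40 (-2.02 to -0.83). As a mean of per-cell CPM its ratio was -0.83 in cells with at least 2000 UMIs and -0.80 over all cells. Those settings are nearly the same measure and not separate checks, and 1 WT cell held 19 of the UMIs. In the KO-labelled library this level could not be told from that of airway secretory-like cells, 8.91 CPM, within counting error, while in the WT library the secretory level of 47.4 CPM was higher. Ciliated-like cells held 68.9% of all Agr2 UMIs in the KO-labelled library and 39.3% in the WT library. Per 1000 Scgb1a1 UMIs, Agr2 had 2.68 UMIs in KO-labelled and 3.57 in WT ciliated-like cells, beside 0.0183 in KO-labelled and 0.109 in WT airway secretory-like cells. The background class had 0 Agr2 UMIs in the KO-labelled and 1 in the WT library.

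Pigr in ciliated-like cells was 78.3 CPM (69.5 to 87.9) in the KO-labelled and 106 CPM (98.3 to 115) in the WT library, a ratio of -0.44 (-0.65 to -0.24). Itln1 had 12 UMIs in 5 cells (3.30 CPM) of the KO-labelled library and 17 UMIs in 14 cells (2.90 CPM) of the WT library (0.19, interval including 0). Bpifb1 was 1.37 CPM in the KO-labelled and 5.63 CPM in the WT library (-2.03, -3.75 to -0.67), and Bpifa1 2.20 CPM in the KO-labelled and 4.43 CPM in the WT library (-1.01, interval including 0). Per 1000 Scgb1a1 UMIs these last genes were no higher in ciliated-like than in airway secretory-like cells: Bpifb1 had 0.432 in KO-labelled and 0.892 in WT ciliated-like cells, beside 0.602 in KO-labelled and 1.49 in WT airway secretory-like cells. Scgb1a1 itself was 3183 CPM in KO-labelled and 6307 CPM in WT ciliated-like cells, and the part of free secretory-cell RNA in these values was not tested. Of the 5 genes with at least 20 UMIs, 3 were called lower, beside 2.48% of 12276 genes, and 0 higher, beside 1.28%. Bpifb1 and Bpifa1 passed the minimum through the WT library. The median of the 5 genes was -1.01, beside -0.06 over all genes. Over the alternatives tried this median ranged from -1.30 to -0.50. Bpifa1, just past 2-fold with 8 KO-labelled and 26 WT UMIs, ranged from -1.30 to 0.18, the last as a mean of per-cell CPM, so its call is not stable. The other 5 had few UMIs: the KO-labelled library had 0 of Muc5ac, 2 of Muc5b, 4 of Clca1 and 2 of Spdef, and the WT library 2, 5, 12 and 8, with no Foxa3 UMI in either.

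AT2-like cells had Pigr, Bpifb1 and Spdef and almost none of the mucin genes. Muc5ac, Muc5b, Agr2 and Itln1 each had 0 or 1 UMI per library among 37473325 UMIs in the KO-labelled and 25059152 UMIs in the WT class, and Clca1 had 1 UMI in the KO-labelled and 7 in the WT library. Pigr was 61.8 CPM (59.3 to 64.4) in the KO-labelled and 51.8 CPM (49.0 to 54.7) in the WT library, a ratio of 0.26 (0.16 to 0.35). When the libraries were clustered apart this ratio was -0.70, with 4340 AT2-like cells in the KO-labelled and 3854 in the WT library. Bpifb1 was 5.71 CPM (4.97 to 6.53) in the KO-labelled and 2.87 CPM (2.25 to 3.62) in the WT library, a ratio of 0.99 (0.60 to 1.40) and opposite in sign to that of airway secretory-like cells. It was 0.40 with libraries clustered apart and 1.79 with the background level subtracted. The background class had 0.259 CPM of Bpifb1 in the KO-labelled and 1.29 CPM in the WT library.

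Spdef in AT2-like cells was 2.35 CPM in the KO-labelled and 2.55 CPM in the WT library (-0.12, interval including 0), spread over 87 KO-labelled and 59 WT cells with at most 3 UMIs in a cell. The background class had 0.259 CPM of Spdef in the KO-labelled and 0.646 CPM in the WT library. Because the class is large, it held 77.9% of all Spdef UMIs in the KO-labelled and 41.6% in the WT library. Foxa3 was 1.01 CPM in the KO-labelled and 0.798 CPM in the WT library, beside 1.04 CPM in the KO-labelled and 0.258 CPM in the WT background class. Bpifa1 was 0.187 CPM in the KO-labelled and 0.998 CPM in the WT library (-2.42). The background class had no Bpifa1 UMI in the KO-labelled library and 1.81 CPM in the WT library, so the WT level in AT2-like cells did not exceed background, and the part of free RNA in the ratio was not tested. That gene is the 1 of 5 called lower in AT2-like cells, beside 2.94% of 13808 genes. With 7 KO-labelled and 25 WT UMIs it passed the minimum through the WT library. None of the 5 was called higher, beside 0.702%. In AT1-like cells 2 Pigr UMIs in the KO-labelled library were the only UMIs of the 10 genes.

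**Figure D5:**
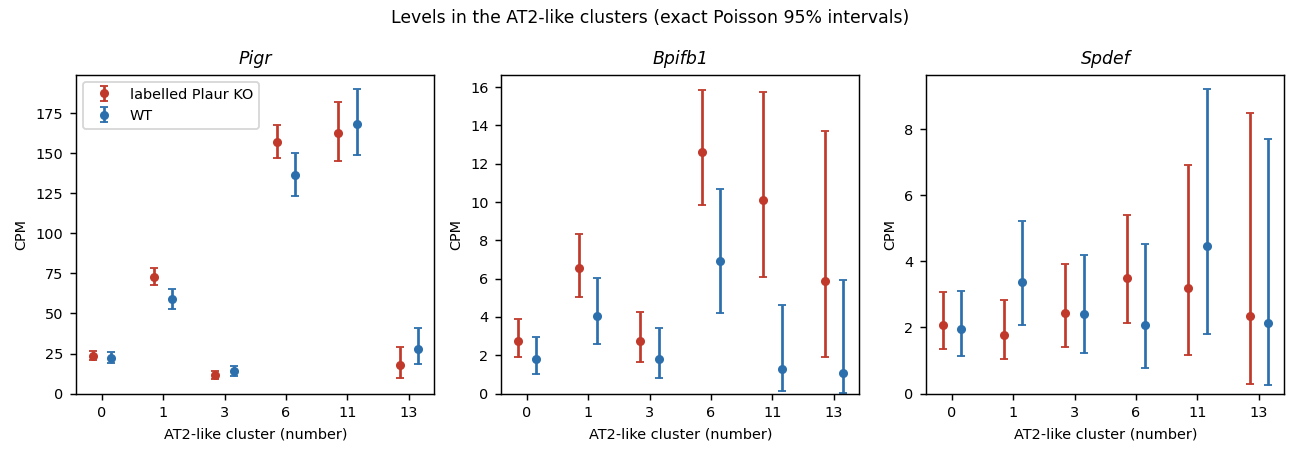
Levels (CPM) of Pigr, Bpifb1 and Spdef in the 6 AT2-like clusters by number, KO-labelled library (red) left of WT library (blue), with exact Poisson 95% intervals. Pigr is highest in clusters 6 and 11, from 136 to 169 CPM, and lowest in cluster 3, at 11.3 CPM in the KO-labelled and 13.8 CPM in the WT library, a spread wider than the gap between libraries.

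Pigr differed more among AT2-like clusters than between libraries. Cluster 6, led by the chemokine genes Cxcl3 and Cxcl5, had Pigr at 157 CPM in the KO-labelled and 136 CPM in the WT library. In cluster 11, led by Ly6i and Slc26a4, it was 163 CPM in the KO-labelled and 169 CPM in the WT library. Cluster 0, the largest and led by Hc, Acoxl and Sftpc, had 23.6 CPM in the KO-labelled and 22.4 CPM in the WT library. Bpifb1 was highest in cluster 6, at 12.6 CPM in the KO-labelled and 6.91 CPM in the WT library. Cluster 11 came next in the KO-labelled library at 10.1 CPM, but it had 2 UMIs (1.28 CPM) in the WT library, among the lowest WT levels. Spdef stayed between 1.78 and 4.47 CPM in the 6 clusters with overlapping intervals.

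Across all kept cells together 7 of 10 genes were called lower in the KO-labelled library, beside 17.7% of 17485 genes, and 0 higher, beside 0.549%. This sum also carries the smaller share of airway secretory-like cells, and the 2 cannot be told apart in it. Muc5ac, for example, had 4 UMIs in the KO-labelled and 86 in the WT library in all, and Pigr 68.3 CPM in the KO-labelled and 78.8 CPM in the WT library. Muc5ac passed the minimum through the WT library, as did Itln1 with 19 KO-labelled and 100 WT UMIs.

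A wider list of 95 other genes of mucus, mucin glycosylation, secretory stress, type 2 response, granule release and BPI-fold relatives was counted in the same way. In airway secretory-like cells 54 of the 95 had at least 20 UMIs, of which 4 were called lower and 1 higher, beside the 9.25% and 0.659% of all genes. The list median was -0.20, close to the -0.25 of all genes. The lowest were Bpifb5, a BPI-fold relative (4.45 CPM in the KO-labelled, 13.6 CPM in the WT library, -1.61, -2.99 to -0.48), Sprr2a3, a small proline-rich protein gene (-1.51, -2.69 to -0.50), and Galnt4, an enzyme that starts mucin O-glycosylation (-1.29, interval including 0). The highest were Lyz1, a lysozyme gene (212 CPM in the KO-labelled, 73.7 CPM in the WT library, 1.52, 1.30 to 1.75), Galnt5 (0.67, interval including 0) and Retnla, a gene induced by interleukins 4 and 13 (11438 CPM in the KO-labelled, 7857 CPM in the WT library, 0.54, 0.52 to 0.57). Lyz1 and Retnla were also among the leading genes of AT2-like clusters, and the part of AT2 RNA in these values was not tested; Sftpc, an AT2 gene, was 11521 CPM in KO-labelled and 10614 CPM in WT airway secretory-like cells. By group, 3 of 8 other mucin genes were measured and none was called. Of 7 measured trefoil and mucus-associated genes 0 were called lower and 1 higher. None of 10 transcription and stress factors and none of 9 granule release genes was called. The lower calls were 2 of 12 measured type 2 response genes, 1 of 11 glycosylation genes and 1 of 2 BPI-fold relatives. In ciliated-like cells 54 genes were measured, 2 called lower, beside 2.48% of all genes, and 3 higher, beside 1.28%. In AT2-like cells 57 were measured, 3 called lower, beside 2.94% of all genes, and 3 higher, beside 0.702%.

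The genes most alike in pattern were ranked by Pearson correlation of log2(CPM + 10) over 25 class-by-library profiles of 14 classes, as a description, since profiles share libraries and depth. For Muc5b they were Chad (0.998), Gabrp (0.991) and Tff2 (0.987). For Agr2 they were Sult1d1 (0.90), Cckar (0.90) and Ppp1r14d (0.90), for Bpifb1 Lrrc26 (0.95), Nwd2 (0.95) and Krt15 (0.94), and for Pigr Cyp2f2 (0.90), Cckar (0.90) and Ooep (0.88). Airway secretory-like cells held 98.1% of Muc5b UMIs in the KO-labelled and 97.0% in the WT library, so any gene confined to that class correlates highly with Muc5b. Chad, Sult1d1, Cckar and Cyp2f2 were also among the markers used to name that class. Tff2, a trefoil peptide gene, was 479 CPM in KO-labelled and 938 CPM in WT airway secretory-like cells (-0.97, -1.08 to -0.86). In subcluster 3 it was 4116 CPM in the KO-labelled and 5939 CPM in the WT library (-0.53, -0.66 to -0.40).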

How the data were processed

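The authors deposited raw UMI counts per gene and barcode for 2 libraries, 1 per genotype, made, per the submitters' processing notes, with Cell Ranger (7.0.0 and 7.1.0). The values are whole-number counts without normalization. How barcodes were chosen before deposit is not given in the sources used here.

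Barcodes under 500 genes or over 15% mitochondrial UMIs were dropped. Doublets were marked with Scrublet in scanpy 1.11.5 per library (expected share 8%) and removed, 175 (1.92%) in the KO-labelled and 617 (5.69%) in the WT library. Both libraries were clustered together (2000 variable genes, 30 components, 15 neighbours, Leiden resolution 1, leidenalg 0.10.2) without the 10 genes, the wider list, Plaur, and mitochondrial, ribosomal, haemoglobin and sex-linked genes. This gave 26 clusters. Clusters were named from markers: 3 or more of a class had to stand in the top 50 genes of the cluster, and more than of any other class. A cluster stayed unnamed where another class had more markers among its top 10 genes. Subclusters of the secretory class used resolution 0.5.

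UMIs were summed per class and library and divided by the class total. Intervals are exact Poisson (CPM), Clopper-Pearson (shares) and conditional binomial (ratios), at 95%. Coverage was tried for the ratio intervals alone, on simulated Poisson counts without clumping of UMIs in single cells. That trial cannot show their coverage in these data, where single cells held large parts of some genes' UMIs. A count of 0 stands at a floor of 3 UMIs. The named genes are all 10 members, Plaur, Scgb1a1 and Sftpc as checks, the 3 highest and 3 lowest of the wider list in airway secretory-like cells, and the 3 genes most like Muc5b, Agr2, Bpifb1 and Pigr. Genes beyond these were chosen after their values were seen. The members and lists were chosen with earlier results of these data known. Alternatives changed the cell filter, doublets, resolution, clustering, scaling (edgeR 4.0.16 TMM factors), depth, weighting, background and low-count minimum. Removal of 3 subclusters led by another class, and of the top cell of each gene, was added after the data were seen. PCR and capture errors are not in the intervals.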

Additional observations from a re-analysis of the deposited data

Results flagged for a closer look

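Bpifb1 had ratios of opposite sign in different epithelial classes, with intervals that did not include 0. The log2 ratio, KO-labelled over WT library, was -1.143 in airway secretory-like and -2.035 in ciliated-like cells, and 0.991 in AT2-like cells. Bpifa1 stood at 0.2927 in airway secretory-like cells and at -2.417 in AT2-like cells, where its WT level was below that of the WT background class. Pigr stood at -0.4429 in ciliated-like and 0.2554 in AT2-like cells. With 1 library per genotype the difference between classes was not tested in any of these 3 genes.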

How the results depend on the processing

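The count of genes called lower in airway secretory-like cells was 4 and ranged from 3 to 5 over 17 alternatives. Their median log2 ratio, -0.70, moved to -0.482 with TMM scaling and -0.5009 with totals taken without the 50 most abundant genes. As a mean of per-cell CPM it was -0.5023 in cells with at least 2000 UMIs and -0.4786 over all cells. The last 2 settings are nearly the same measure, and both called 1 gene higher, Bpifa1. In AT2-like cells the median of 0.26 ranged from -0.41, with each library clustered apart, to 0.3738, with TMM scaling, and it was -0.12 with a minimum of 1 UMI. In ciliated-like cells the median of -1.01 ranged from -1.30 to -0.50, and Bpifa1 there was 0.18 as a mean of per-cell CPM. Clca1 in airway secretory-like cells changed sign as a mean of per-cell CPM, to 0.1314 in cells with at least 2000 UMIs and 0.1388 over all cells. Pigr in AT2-like cells changed sign, to -0.6956, with each library clustered apart. The causes were not tested. Over the alternatives tried the ratio in airway secretory-like cells lay between -4.58 and -2.73 for Muc5ac, -3.62 and -1.96 for Agr2, -2.85 and -1.93 for Itln1, and -1.29 and -0.57 for Muc5b. No paired analysis was possible because each genotype has 1 library and no test was made. For the same reason no replicate could be left out. Depth limits Foxa3, Muc5ac and Itln1 most, with 5, 4 and 6 UMIs in KO-labelled airway secretory-like cells.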

Other observations

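Pigr was also counted in general capillary-like cells, at 9.58 CPM (14 UMIs) in the KO-labelled and 2.98 CPM (6 UMIs) in the WT library, a log2 ratio of 1.68 (0.22 to 3.35). In those cells the AT2 gene Sftpc was 19228 CPM in the KO-labelled and 2680 CPM in the WT library, and its RNA's part in the Pigr value was not tested. The single WT cell with most Muc5ac had 18 Muc5ac UMIs with 223 Clca1, 43 Muc5b and 19 Itln1 UMIs among 18061.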
